A study of Mus musculus with 120 samples.

Results

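The region labelled A of the mouse embryo was followed over 0.5 days of gastrulation, from 7.0 days (E7.0) to 7.5 days post coitum (E7.5), in RNA counts of 2 libraries per age. All embryos were of the ICR strain, an outbred stock, with no transgene or treatment named. Genes with 10 or more counts in at least 2 of these 4 libraries were followed, which gave 12570 of the 23154 genes in the table. Of these, 12542 passed the filter of the test, within 14403 genes tested over all embryo libraries, and 28 did not. At the edge of the rule, 156 genes had a second-highest count of exactly 10 and 184 of exactly 9. The labels name the embryonic pieces of E7.0 as A and P and those of E7.5 as A, P and AM, so A at E7.5 is one of 3 pieces and A at E7.0 one of 2. The age of a library and the way the embryo was cut therefore cannot be told apart. Nothing in the labels says whether the 2 libraries of a group came from separate embryos or from pools, so p-values measure the spread between libraries.

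At these ages the epiblast, the layer that forms the embryo proper, lies inside the visceral endoderm, an extra-embryonic layer that makes serum proteins and takes up nutrients. On the anterior side the anterior visceral endoderm secretes inhibitors of Wnt and Nodal, and the epiblast beneath it takes on an ectodermal and later neural fate. On the posterior side the primitive streak forms mesoderm and endoderm, and mesoderm migrates forward between the 2 layers. FGF ligands signal through receptor kinases and the MAP kinase cascade, which switches on its own inhibitors, among them Dusp6 and the Sprouty genes.

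The labelled region was checked first against genes that mark places in the gastrula. Otx2, a homeobox gene of the anterior epiblast and forebrain, stood at 221 and 226 CPM (counts scaled to a common library size) in A at E7.0 and at 139 and 92.2 at E7.5. In P it stood at 163 and 143 at E7.0 and at 4.75 and 3.54 at E7.5. Both A libraries of E7.5 thus lay far above both P libraries. Hesx1, an anterior homeobox repressor, stood at 15 and 21 CPM at E7.0 but at 36.9 and 5.55 in the E7.5 libraries, so these 2 did not sit close together. Six3, a forebrain gene, stood at 1.14 and 0.709 CPM at E7.0 and 4.05 and 0.598 at E7.5, and Sox2, of epiblast and neural plate, at 7.53 and 18.1 and then at 12.2 and 7.94. The streak gene T (brachyury) stood at 2.44 and 5.81 CPM at E7.0 and at 3.90 and 45.1 at E7.5, so E7.5 replicate 2 held more of it than the other 3. Its level in P at E7.5 was 263 and 444 CPM. Elf5, of the extra-embryonic ectoderm, was at 0, 0.142, 0 and 0 CPM. None of Otx2, Hesx1, Six3, Sox2 or T passed the test between the ages.

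The 4 libraries held 13359366 and 8515933 counts at E7.0 and 16297084 and 9366714 at E7.5. Transcripts of the Y chromosome were present in both E7.0 libraries and in E7.5 replicate 1, with Ddx3y at 98, 57.4 and 59.4 CPM, and were absent from E7.5 replicate 2, which had Xist at 64.2 CPM. Genes of high level were mostly lower at E7.5: of 130 genes with a mean over 1000 CPM, 124 had a negative fold change. The share with a negative fold change was 77.9% at a mean of 100 to 1000 CPM and 52.4% at 10 to 100. Genes of low level leaned the other way, with 40.2% negative at 1 to 10 CPM and 40.9% under 1. The 18 tested genes of cytosolic ribosomal proteins had a median log2 fold change of -0.83, all negative and none called, against a median of 0 over all tested genes. With total counts as the only scaling, 17 of the 18 were negative with a median of -0.37 while the median of all genes became 0.43. Without E7.0 replicate 2 only 13 were negative.

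Between E7.0 and E7.5, 26 genes rose and 59 fell in region A. A gene is called here when edgeR's quasi-likelihood test, fitted over all embryo groups, gave a Benjamini-Hochberg adjusted p under 0.05. The 85 called genes were 0.59% of those tested, 0.181% higher and 0.41% lower, and all were among the followed genes. In all 85 the 2 libraries of one age lay apart from those of the other, but so did many other genes: 25.8% of tested genes had both E7.5 values above both E7.0 values and 24% had both below. The smallest called change was 1.23 on the log2 scale, more than 2-fold. On simulated counts of this comparison the test recovered 4.48% of 2-fold, 46.3% of 4-fold and 80.3% of 8-fold changes, so small changes went largely unseen. Of all tested genes, 2300 (16%) had an unadjusted p under 0.05, the share to set beside such counts in the gene lists. The calls rested strongly on single libraries: 25 genes were called without E7.0 replicate 1, 163 without E7.0 replicate 2, 14 without E7.5 replicate 1 and 107 without E7.5 replicate 2. Of the 85, 9 kept their call without each library in turn: Amot, Cd59a, Dusp6, Fgg, Foxb1, Mageb16, Srgn, Stx3 and Xlr5a. In an edgeR fit of the 4 A libraries alone none of the 85 was called (adjusted p 0.052 for Amot and Mageb16), while 2005 genes had an unadjusted p under 0.05. The split of directions moved with the scaling. Total counts alone gave 116 higher and 45 lower, and leaving out the count filter gave 316 of each.

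**Figure D1:**
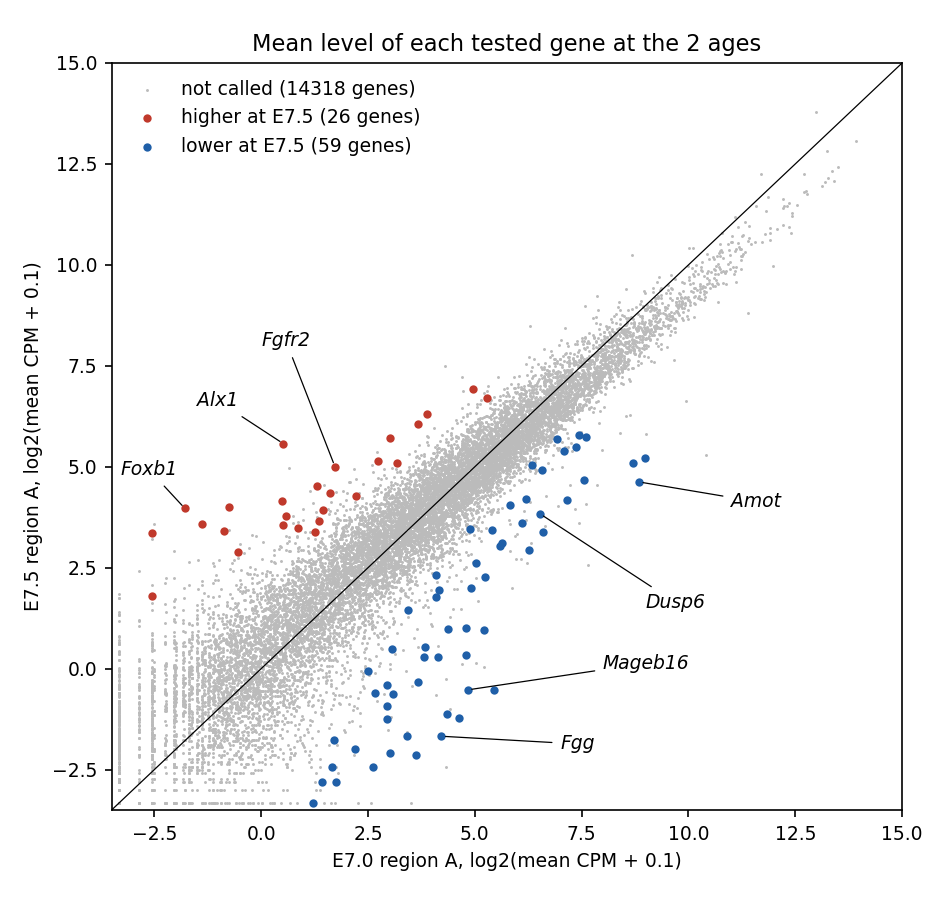
Mean level of each of the 14403 tested genes in region A at E7.0 (x axis) and E7.5 (y axis), as log2(mean CPM + 0.1) over 2 libraries. Red points are the 26 called genes higher at E7.5, blue points the 59 lower, and the line marks equal levels; at the upper right most points lie below the line.

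To show what the regulatory stretches of called genes look like, the 250 bases before the RefSeq start (GRCm38.p6) are printed for a gene of the FGF feedback loop (Dusp6), of the visceral endoderm (Fgg) and of the X chromosome (Mageb16). They lie at chr10:99262981-99263230 (plus strand), chr3:83007474-83007723 (plus strand) and chrX:79671436-79671685 (minus strand), just before these genes. Capitals mark CG pairs, the sites of DNA methylation in mammals, of which they hold 16, 4 and 5. The sequences run 5′ to 3′ on the strand of the gene.
Dusp6: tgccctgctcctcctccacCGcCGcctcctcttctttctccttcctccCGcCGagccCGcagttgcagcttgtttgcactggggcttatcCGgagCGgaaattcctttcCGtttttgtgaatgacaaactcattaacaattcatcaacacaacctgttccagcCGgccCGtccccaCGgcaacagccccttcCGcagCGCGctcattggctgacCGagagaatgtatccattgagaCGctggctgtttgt
Fgg: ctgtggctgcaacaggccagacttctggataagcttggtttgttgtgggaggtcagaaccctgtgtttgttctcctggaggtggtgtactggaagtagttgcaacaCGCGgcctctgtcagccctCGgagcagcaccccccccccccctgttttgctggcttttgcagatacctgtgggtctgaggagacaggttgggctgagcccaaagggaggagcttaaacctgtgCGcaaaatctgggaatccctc
Mageb16: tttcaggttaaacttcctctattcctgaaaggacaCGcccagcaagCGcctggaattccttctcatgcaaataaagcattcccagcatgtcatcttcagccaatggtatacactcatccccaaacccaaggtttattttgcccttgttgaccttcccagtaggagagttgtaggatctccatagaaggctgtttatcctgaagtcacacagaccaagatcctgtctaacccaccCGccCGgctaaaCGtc
A promoter of this length was found for 46 of the 59 lower genes, 14 of the 26 higher genes and 10913 of the tested genes. The median number of CG pairs was 6 in the lower genes (range 0 to 25), 9.5 in the higher genes (1 to 19) and 15 in the tested genes (0 to 56). Over all 27025 RefSeq promoters it was 6 (0 to 56). Short motifs were searched on both strands, as a description only. With 14 promoters of higher genes, 1 match there is 7.14% and 2 matches are 14.3%. The SOX motif ACAATG lay in 17.4% of the lower promoters (8 of 46), 14.3% of the higher ones, 6.06% of the tested ones and 11% of all 27025 in the RefSeq table. The FOX motif TGTTTAC lay in 8.7% of the lower promoters (4 of 46), 7.14% of the higher, 2.11% of the tested and 3.09% of all. The octamer ATGCAAAT, to which Pou5f1 binds, lay in 1 lower promoter, that of Mageb16, in 1 higher promoter and in 1.38% of the tested and 1.61% of all. The HNF1 motif GTTAAT, whose letters can overlap those of TAATCC, lay in 8.7% of the lower promoters, that of Dusp6 included, in 14.3% of the higher, 3.98% of the tested and 6.52% of all. The OTX motif TAATCC lay in 4.35% of the lower, 14.3% of the higher, 4.98% of the tested and 6.38% of all promoters, and the motif of the blood and endoderm family of zinc finger factors, AGATAA, in 4.35%, 14.3%, 6.08% and 10.3% of the same sets. The TCF motif CTTTGAT and the T-box motif AGGTGTGA lay in 0 of the 46 lower promoters, in 0 and 1 of the higher ones and in 2.35% and 0.742% of the tested ones. The shares of the SOX, FOX, HNF1 and octamer motifs were above those of the tested genes in both sets. In the higher genes each of them rests on 1 or 2 promoters, and in the lower genes the octamer rests on 1. By the median, promoters of called genes also held fewer CG pairs than those of tested genes, though not fewer than all 27025 RefSeq promoters. The part of CG pairs in the motif shares was not tested.

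The strongest falls included Mageb16, a member of the X-linked MAGE family, and Amot, a junction scaffold that binds the Hippo effector YAP. Mageb16 stood at 34.6 and 22.3 CPM at E7.0 and at 0.506 and 0.683 at E7.5, and fell by 5.59 ± 0.49 (SE) on the log2 scale (edgeR adjusted p = 2.84e-05, n = 2 per age). Amot stood at 489 and 428 CPM and then at 17.1 and 32, and fell by 4.22 ± 0.40 (edgeR adjusted p = 3.92e-05). In both genes the ages were far apart and the replicates close. Amot was the only one of 14 tested genes of the Hippo list to be called; that list had a median log2 fold change of 0.28.

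Further large falls, named by size of change, included those of several genes for secreted, lysosomal and membrane proteins. The share of such genes among all tested genes was not computed. Fgg, the gamma chain of fibrinogen, went from 22.1 and 14.9 CPM to 0 and 0.427, a log2 fold change of -6.67 ± 0.81 (edgeR adjusted p = 0.000672). Srgn, the core protein of the proteoglycan serglycin, went from 24.8 and 16 CPM to 0.203 and 0.513, a log2 fold change of -5.89 ± 0.71 with the same adjusted p of edgeR. Ctsc, the lysosomal protease cathepsin C, fell by 3.77 ± 0.52 on the log2 scale, from 473 and 541 CPM to 28.0 and 46.4. In these 3 genes both E7.5 libraries lay far below both E7.0 libraries, though lying apart was a condition for naming them. Slc40a1, the iron exporter ferroportin, fell from 32.1 and 23.3 CPM to 1.37 and 2.48. Cd55, which shields cells from complement, fell from 33.6 and 21.4 CPM to 0.810 and 1.54, a log2 fold change of -4.58 ± 0.66 (edgeR adjusted p = 0.00298). A further complement inhibitor, Cd59a, named after its value was seen, fell from 123 and 71.6 CPM to 7.39 and 13.3 (-3.24 ± 0.40 on the log2 scale). Pga5, a pepsinogen, fell from 43.1 and 43.7 CPM to 0 and 1.2. Akr1c13, an aldo-keto reductase that shares sequence with its neighbours, was called with a log2 fold change of -6.29 ± 1.15, though reads of such copies cannot be told apart with certainty. Tfec, a transcription factor of the MiT family, fell from 20.7 and 14.2 CPM to 0.203 and 2.05. Without E7.5 replicate 1 the edgeR adjusted p was 0.0563 for Ctsc, 0.0715 for Cd55, 0.0584 for Pga5, 0.18 for Tfec and 0.196 for both Slc40a1 and Akr1c13. Without E7.0 replicate 1 it was 0.112 for Pga5, 0.205 for Tfec, 0.17 for Slc40a1 and 0.119 for Akr1c13, and without E7.5 replicate 2 it was 0.0639 for Slc40a1 and 0.0686 for Akr1c13.

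Skil fell in A and was also low in the other embryonic pieces of E7.5. It codes for SnoN, an inhibitor of SMAD signalling that Nodal and TGF-beta signals induce, and stood at 577 and 259 CPM at E7.0 and 32.2 and 35.9 at E7.5, a log2 fold change of -3.62 ± 0.49 (edgeR adjusted p = 0.00195, and 0.0558 without E7.5 replicate 1). In P it stood at 209 and 136 CPM and then at 40.7 and 17.8, and in AM of E7.5 at 33.7 ± 4.96 (SD, n = 2). Pmepa1, a further target and inhibitor of TGF-beta signals named after its value was seen, stood at 12.6 and 3.54 CPM in A at E7.0 and at 0.101 and 0.171 at E7.5 (edgeR adjusted p = 0.0168, and 0.202, 0.196 and 0.0912 without E7.0 replicate 1, E7.5 replicate 1 and E7.5 replicate 2). It stood at 20.3 and 3.94 CPM and then at 0.259 and 0.262 in P, and at 0.138 ± 0.0976 in AM (SD, n = 2). Both genes were thus low in all 3 embryonic pieces of E7.5. Of the 16 tested genes of the Nodal list edgeR called none, 3 had an unadjusted p under 0.05, near the share of all genes, DESeq2 called 2, and the median log2 fold change was -0.32.

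**Figure D2:**
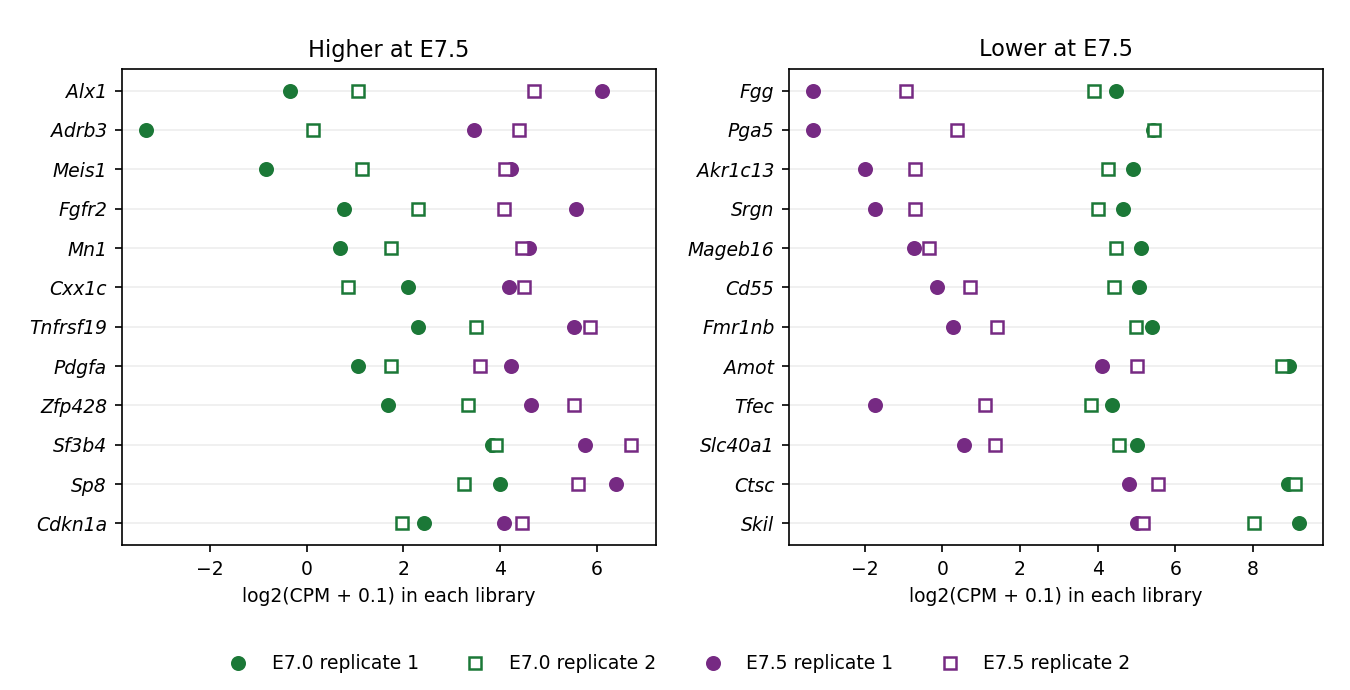
Level of the 12 called genes with the largest rises (left) and the 12 with the largest falls (right) among those with a mean of at least 8 CPM, in each of the 4 libraries of region A on a log2(CPM + 0.1) axis. Green marks are E7.0, purple marks E7.5, filled circles replicate 1 and open squares replicate 2. The colours do not overlap because replicates lying apart was a condition for choosing these genes.

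The third piece of E7.5, AM, whose abbreviation the labels do not spell out, had higher levels of several of the genes that fell in A. Sox2 stood there at 0.722 ± 0.0466 CPM and T at 93.6 ± 67.4 (SD, n = 2 each). Amot stood there at 210.2 ± 21.2 CPM, Mageb16 at 18.7 ± 0.00309, Ctsc at 421 ± 88.4, Cd55 at 40.8 ± 22.7 and Slc40a1 at 25.7 ± 3.43 (SD, n = 2 each). These levels set against A at E7.5 use the same A libraries as the calls, so they are given side by side without a test. Among the genes that rose, Alx1 and Meis1 were also high in AM, at 70.1 ± 37.9 and 24.3 ± 1.14 CPM, whereas Foxb1 and Sp8 were at 1.51 ± 1.07 and 13.7 ± 6.33.

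Genes of the visceral endoderm had lower levels in A at E7.5, above all in replicate 1, and edgeR called 1 of them, Fgg. DESeq2 called 5 and edgeR without a count filter 20, all lower. Of the 26 tested genes of this list all had a negative log2 fold change, with a median of -2.35 against 0 over all tested genes. In 18 of the 26 both E7.5 values were below both E7.0 values, as they were in 24% of all tested genes. Beside the 1 call, 8 genes in all had an unadjusted p under 0.05. Ttr, which codes for the thyroid hormone carrier transthyretin, stood at 269.8 and 757 CPM at E7.0 and at 0.405 and 111 at E7.5 (-3.20 ± 1.81 on the log2 scale, edgeR adjusted p = 0.406). Afp, the fetal serum protein alpha-fetoprotein, stood at 147 and 199.9 CPM and then at 0.354 and 23.7, and Apoa1, an apolipoprotein, at 432 and 1544 and then at 1.16 and 197. In all 3 genes E7.5 replicate 1 was near 0 and replicate 2 was not. The summed level of the list was 2857 and 6318 CPM at E7.0 and 534.7 and 1421 at E7.5, and 7 of the 26 genes were at 0 in E7.5 replicate 1. The median of the list was -1.44 without E7.5 replicate 1 and -6.19 without replicate 2, with 1 and 9 genes called. In these bulk libraries, fewer visceral endoderm cells and less RNA per cell cannot be told apart. The part of this layer in the other falls, those of Amot, Ctsc and the X-linked genes included, was not tested.

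In the anterior visceral endoderm list 1 gene fell. Dkk1, the secreted Wnt inhibitor of this tissue, fell from 50.5 and 87.8 CPM to 12.1 and 12.2, a log2 fold change of -2.50 ± 0.43 (edgeR adjusted p = 0.0127, and 0.125 and 0.0654 without E7.5 replicate 1 and 2). It was the 1 gene of 12 tested to be called, and 11 of 12 were negative with a median of -2.43. DESeq2 called 7 of the 12, all lower. In AM, Dkk1 stood at 138 ± 11.1 CPM (SD, n = 2). Cer1, a secreted antagonist of Nodal, BMP and Wnt, stood at 187 and 611 CPM at E7.0 and 104 and 50.1 at E7.5, with an edgeR adjusted p of 0.301. Hhex and Lhx1, transcription factors of this layer, had log2 fold changes of -2.21 ± 0.56 and -2.38 ± 0.62 with edgeR adjusted p of 0.0837 and 0.0898. Lefty1, a Nodal antagonist, stood at 35.0 and 5.10 CPM and then at 0 and 0.171 and did not pass (edgeR adjusted p = 0.0969). The definitive endoderm list, which shares some of these genes, had none of 17 called by edgeR and 6 by DESeq2, 11 with an unadjusted p under 0.05 and a median of -1.41.

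Feedback inhibitors of the FGF pathway fell and a receptor rose. Of 18 tested genes of this list 4 fell and 1 rose, which is 27.8% called beside 0.59% of all tested genes. The list was chosen with earlier results of these data known, so these 2 shares are not an independent contrast. In the fit of the 4 A libraries alone none of the 18 was called. The median log2 fold change of the list was -1.96. Dusp6, a phosphatase that switches off ERK, stood at 94.9 and 89.0 CPM at E7.0 and at 13.4 and 14.9 at E7.5. It fell by 2.70 ± 0.30 on the log2 scale (edgeR adjusted p = 0.000357, and from 0.000942 to 0.0349 when each library was left out in turn). The replicates of each age lay close together. Spry4, an inhibitor of receptor kinase signalling, fell from 35.7 and 40.1 CPM to 3.19 and 6.32 (-3.01 ± 0.54 on the log2 scale, edgeR adjusted p = 0.015). Il17rd, also called Sef, an FGF antagonist in the membrane, fell from 18.8 and 15.2 CPM to 2.84 and 3.76 (-2.37 ± 0.45, edgeR adjusted p = 0.0168). Spry2, named after its value was seen, fell from 278 and 96.5 CPM to 16.6 and 34.0 (-2.89 ± 0.60, edgeR adjusted p = 0.0386). Fgfr2, a receptor, rose from 1.60 and 4.82 CPM to 47.2 and 16.8, a log2 fold change of 3.37 ± 0.60 (edgeR adjusted p = 0.0134). Without E7.5 replicate 1 the edgeR adjusted p was 0.191 for Spry4, 0.196 for Il17rd, 0.236 for Spry2 and 0.125 for Fgfr2, and without E7.0 replicate 1 it was 0.0608, 0.188, 0.463 and 0.205 in the same order. Without E7.5 replicate 2 it was 0.0723 for Il17rd and 0.0711 for Spry2, and with total counts alone it was 0.0793 and 0.0931.

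The ligands of the FGF list did not pass the test. Fgf5, a ligand of the epiblast, stood at 262 and 201 CPM at E7.0 and at 15.7 and 30.8 at E7.5 (-3.32 ± 0.81 on the log2 scale, edgeR adjusted p = 0.0898). Fgf8 and Fgf4, ligands of the streak, had log2 fold changes of -2.94 ± 0.91 and -2.93 ± 1.03 with edgeR adjusted p of 0.16 and 0.194. Fgf15 and the receptor Fgfr1, named after their values were seen, had log2 fold changes of -3.36 ± 0.74 and 1.37 ± 0.35 with edgeR adjusted p of 0.0593 and 0.0892. For Fgf5, Fgf8, Fgf4 and Fgf15 both E7.5 values were below both E7.0 values, as they were in 24% of all tested genes. In P the change of Dusp6 was -1.02 on the log2 scale (edgeR adjusted p = 0.301), and the difference between the regions was -1.68 ± 0.40 with an adjusted p of 0.567. The 4 inhibitors were at 29.8 ± 5.82 (Dusp6), 10.6 ± 4.16 (Spry4), 7.11 ± 1.0 (Il17rd) and 23.5 ± 12.7 CPM (Spry2) in AM (SD, n = 2 each).

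**Figure D3:**
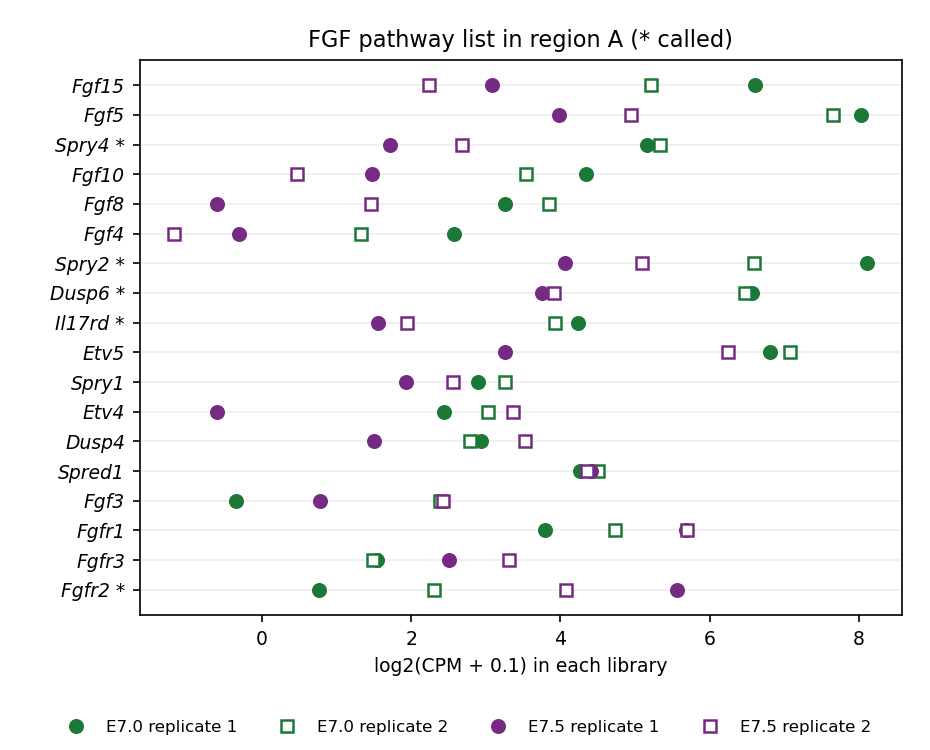
Level of the 18 tested genes of the FGF list in the 4 libraries of region A on a log2(CPM + 0.1) axis, ordered by fold change from the largest fall (top) to the largest rise (bottom). Green marks are E7.0 and purple marks E7.5, circles replicate 1 and squares replicate 2, and a star marks the 5 called genes.

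Alx1 had one of the largest rises. It codes for a homeobox factor of the head mesenchyme that is needed for the skull and face, and stood at 0.685 and 1.98 CPM at E7.0 and at 69.0 and 25.9 at E7.5 (5.23 ± 0.84 on the log2 scale, edgeR adjusted p = 0.00747). The E7.5 libraries differed between themselves but both lay far above E7.0. The edgeR adjusted p was 0.0563 without E7.5 replicate 1 and 0.169 without E7.0 replicate 1. In P its level stayed between 0.288 and 0.762 CPM in all 4 libraries, although the difference of the change between regions, 5.11 ± 1.33, had an adjusted p of 0.655. Of 14 tested genes of the list of head mesenchyme and anterior mesoderm, Alx1 was the 1 called, 13 had a positive fold change, 9 had an unadjusted p under 0.05, and the median was 2.99 (2.61 with genes at 0 counts set to their bound). Prrx1, a mesenchyme homeobox gene, stood at 0.152 and 0.142 CPM at E7.0 and 5.52 and 0.940 at E7.5 and did not pass (edgeR adjusted p = 0.204). The summed level of the list was 22.2 and 23.4 CPM at E7.0 and 150.5 and 73.9 at E7.5, Alx1 included. In P the sum was 62.5 and 72.9 CPM at E7.0 and 224.9 and 99.8 at E7.5, and in AM 243.6 and 162.8. Leaving out a library moved the median from 2.31 without E7.0 replicate 1 to 4.5 without E7.0 replicate 2.

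The other large rises were of genes with varied roles. Meis1, a TALE homeobox factor, rose from 0.457 and 2.13 CPM to 18.5 and 17.1 (3.88 ± 0.68 on the log2 scale, edgeR adjusted p = 0.013). Mn1, a transcriptional coregulator, rose from 1.52 and 3.26 CPM to 24.2 and 21.8. Pdgfa, a ligand of the PDGF receptor, rose from 1.98 and 3.26 CPM to 18.5 and 12, and Tnfrsf19, a receptor of the TNF family, from 4.79 and 11.2 to 46.1 and 58.0. Adrb3, the beta-3 adrenergic receptor, rose from 0 and 0.992 CPM to 10.9 and 20.9. In each of these 5 genes both E7.5 libraries lay well above both E7.0 libraries, though lying apart was a condition for naming them. Cdkn1a, which codes for the cell cycle inhibitor p21 and is a target of p53, rose from 5.25 and 3.83 CPM to 16.8 and 21.6 (2.07 ± 0.43, edgeR adjusted p = 0.0343). It was the 1 gene called of 20 in the cell cycle list and of 13 in the p53 list, whose medians were 0.16 and 0.05. Sf3b4, a splicing factor, rose from 14.2 and 15 CPM to 53.8 and 104, and Zfp428, a zinc finger gene, from 3.12 and 9.92 to 24.6 and 45.6. Without E7.0 replicate 1, edgeR adjusted p was 0.202 for Meis1, 0.387 for Mn1, 0.438 for Pdgfa, 0.209 for Tnfrsf19, 0.17 for Adrb3, 0.205 for Cdkn1a, 0.332 for Sf3b4 and 0.229 for Zfp428. Without E7.5 replicate 1 the call was lost in all of these genes but Zfp428. Over the 4 libraries of A left out in turn, Cdkn1a and Sf3b4 lost their call each time. Adrb3 and Pdgfa lost it in 3 of these fits, and Meis1, Mn1, Tnfrsf19 and Zfp428 in 2.

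Genes of the neural plate and of the brain mostly had positive fold changes, with few calls. Sp8, a zinc finger factor of the forebrain and tail bud, rose from 15.8 and 9.36 CPM to 84.3 and 48.5 (2.39 ± 0.52 on the log2 scale, edgeR adjusted p = 0.0448, and 0.188, 0.122 and 0.215 without E7.0 replicate 1, E7.0 replicate 2 and E7.5 replicate 1). It was the 1 called of 10 tested genes of the forebrain and midbrain list, whose median was 1.54, and the 1 called of 18 of the primitive streak list, whose median was -0.23. Foxb1, a forkhead factor of the neural plate named after its value was seen, rose from 0.381 and 0 CPM to 9.82 and 21.3 (6.03 ± 0.99, edgeR adjusted p = 0.00949). Nkx1-2, a homeobox factor of the caudal epiblast also named after its value was seen, stood at 0 and 0.142 CPM at E7.0, which is 1 count in all, and at 10.7 and 9.74 at E7.5. The ratio of the counts was 209 (exact 95% interval 37.2 to 8266, counting error only), with an edgeR adjusted p of 0.00791 and of 0.172 without E7.0 replicate 1. In P it rose from 0.345 and 0.762 CPM to 92.6 and 17.7 (edgeR adjusted p = 0.00988). Of the 19 tested genes of the neural ectoderm list edgeR called none and DESeq2 called 3, 9 had an unadjusted p under 0.05, 15 were positive and the median was 1.8. The median log2(CPM + 0.1) of this list was 0.556 and 0.304 at E7.0 and 2.66 and 2.48 at E7.5. Among all tested genes with a mean of 1 to 10 CPM, 40.2% were negative and the median log2 fold change was 0.234. Irx3 and Gbx2, which pattern the neural plate and were named after their values were seen, had log2 fold changes of 4.66 ± 1.06 and 5.98 ± 1.39 with edgeR adjusted p of 0.0549 and 0.0633. Otx2 had a log2 fold change of -0.95 ± 0.60 (edgeR adjusted p = 0.44).

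Genes of the epiblast mostly had negative fold changes, none of them called. Of 18 tested, 15 were negative, edgeR called none and DESeq2 called 3, 7 had an unadjusted p under 0.05 and the median was -1.10. The median log2(CPM + 0.1) of the list was 7.28 and 7.64 at E7.0 and 5.01 and 5.98 at E7.5. Of all tested genes with a mean of 100 to 1000 CPM, 77.9% had a negative fold change, as had 52.4% of those at 10 to 100. Tdgf1, a co-receptor of Nodal, stood at 204 and 200.3 CPM at E7.0 and at 2.53 and 9.23 at E7.5, a log2 fold change of -5.13 ± 1.56 (edgeR adjusted p = 0.176). Pou5f1 stood at 124 and 315 CPM and then at 171 and 427, so its ages overlapped. Of the 18 tested genes of the primitive streak list, 9 had a negative and 9 a positive fold change, and 10 had an unadjusted p under 0.05. Among the negative ones, Mixl1 stood at 61.9 and 12.8 CPM and then at 0.658 and 1.2 (edgeR adjusted p = 0.0952). Eomes, also negative, stood at 57.8 and 69.6 and then at 3.54 and 16.5 (edgeR adjusted p = 0.0627). Dppa5a, an RNA-binding gene of pluripotent cells named after its value was seen, fell from 122 and 31.5 CPM to 6.48 and 8.54 (-3.36 ± 0.54, edgeR adjusted p = 0.00747, and 0.148 and 0.125 without E7.0 replicate 1 and E7.5 replicate 1). It also fell in P, by 3.4 on the log2 scale (edgeR adjusted p = 0.0194).

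In the Wnt list 2 genes rose and 1 fell of 20 tested, with a median of 0.09, which became -0.27 without E7.5 replicate 2. Wnt8a, a ligand, rose from 0.609 and 0.284 CPM to 6.43 and 14.5 (4.43 ± 0.86 on the log2 scale, edgeR adjusted p = 0.0242). Nkd1, an inhibitor that canonical Wnt signals induce, rose from 0.381 and 2.27 CPM to 11.1 and 12 (3.24 ± 0.69, edgeR adjusted p = 0.0386). The fall was that of Dkk1. When each library was left out in turn the edgeR adjusted p of Wnt8a lay between 0.0508 and 0.205, and that of Nkd1 was 0.438, 0.125 and 0.0848 without E7.0 replicate 1, E7.5 replicate 1 and E7.5 replicate 2. In P, Wnt8a stood at 36.8 and 19.4 CPM and Nkd1 at 25.4 and 28.3 at E7.5. The lists of paraxial and heart mesoderm had no gene called by edgeR of 16 and 17 tested (DESeq2 called 0 and 2), 7 and 3 with an unadjusted p under 0.05 and medians of 2.81 and 1.76. The 3 of 17 in the heart list are near the share of all genes. The Hox list had none of 12 called by edgeR and 2 by DESeq2, 4 with an unadjusted p under 0.05, and a median of 2.10 (1.55 with genes at 0 counts set to their bound).

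**Figure D4:**
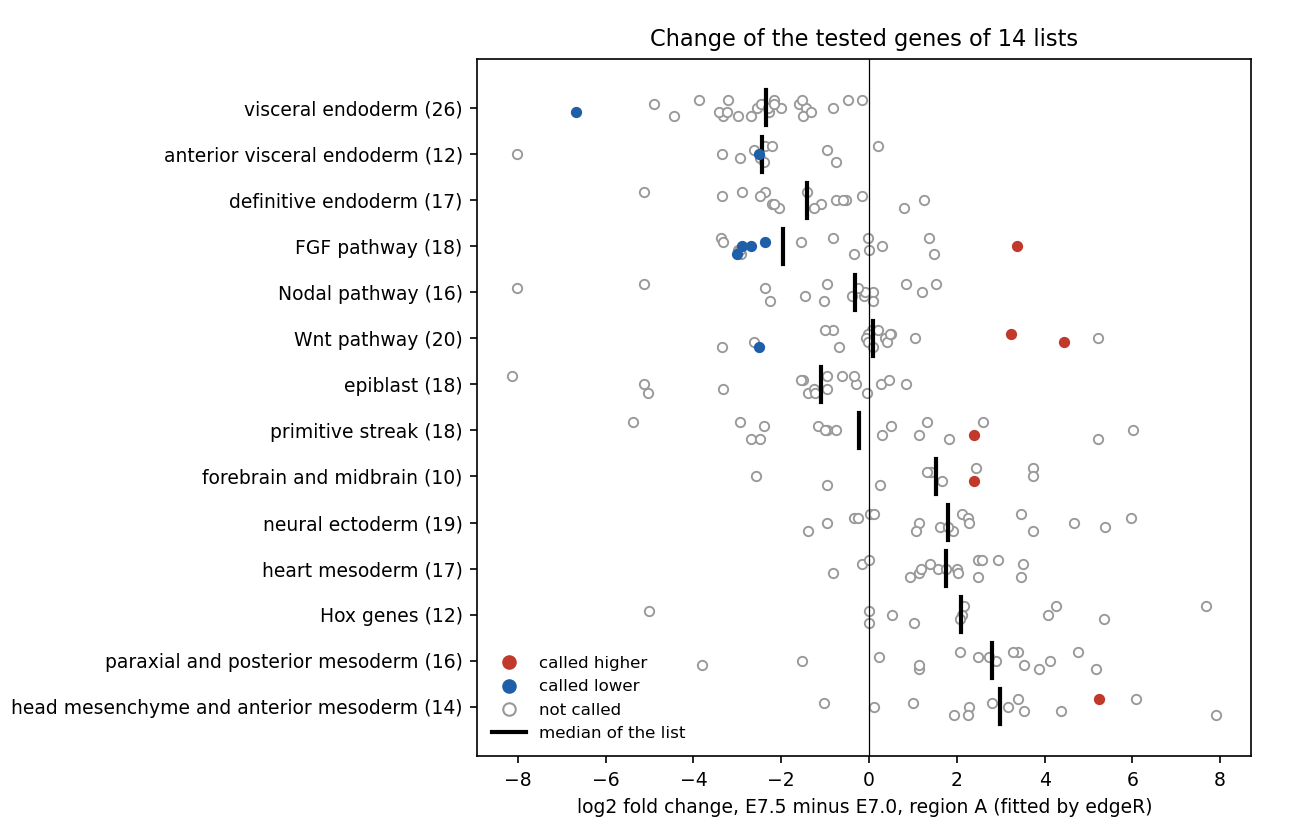
Fitted log2 fold change, E7.5 minus E7.0 in region A, of the tested genes of 14 gene lists, with the number tested in brackets. Each circle is a gene, filled where it was called (red higher, blue lower), and the black bar is the median of the list, from -2.43 in the anterior visceral endoderm list to 2.99 in the head mesenchyme list.

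Of the 59 genes that fell, 10 lie on the X chromosome, 1.8% of its 557 tested genes, beside 0.41% of all tested genes. This grouping was noticed in the data. Of the 10, 3 stayed called without E7.5 replicate 1 (Amot, Mageb16 and Xlr5a), 5 without E7.0 replicate 1, 9 without E7.0 replicate 2, 7 without E7.5 replicate 2 and 0 in the fit of the 4 A libraries alone. Beside Mageb16 and Amot they include Trap1a, a tumor rejection antigen, Fmr1nb, Atp6ap2, an accessory subunit of the proton pump, AA414768, and 4 genes of the Xlr family, Xlr4b, Xlr4c, Xlr5a and Xlr5b. The Xlr genes are near-identical copies, so reads may be split between them. Xlr5a stood at 14.7 and 10.8 CPM at E7.0 and at 0.101 and 1.28 at E7.5 (-4.35 ± 0.66 on the log2 scale, edgeR adjusted p = 0.00437). Trap1a fell from 51.2 and 48.5 CPM to 5.47 and 11.5 (-2.56 ± 0.37, edgeR adjusted p = 0.00298), and Fmr1nb from 42.2 and 31.8 to 1.11 and 2.56. Without E7.5 replicate 1 the edgeR adjusted p was 0.0691 for Trap1a and 0.215 for Fmr1nb, and for Fmr1nb it was 0.209 without E7.0 replicate 1 and 0.0922 without E7.5 replicate 2. The E7.5 library with Y transcripts and the one with Xist were both low in these 3 genes. In AM of E7.5, Trap1a stood at 52.1 ± 12.1 CPM and Xlr5a at 10.5 ± 0.223, and in the extra-embryonic part of E7.5 at 226 ± 37.3 and 49.3 ± 17.6 (SD, n = 2 each). The median log2 fold change of the X chromosome was -0.17. Of the genes that rose, Cxx1c, derived from a retrotransposon, was the 1 on the X chromosome, at 4.19 and 1.70 CPM and then at 18 and 22.5 (edgeR adjusted p = 0.0171, and 0.0499 to 0.0801 when each library was left out in turn).

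The change was then compared with that of region P over the same ages, as the difference of the 2 log2 fold changes. The test took the A and P libraries as separate, without a pairing within each age. The difference passed the test in 4 genes, 0.0278% of those tested, all of which fell more in A: Mageb16, Amot, Fgg and Slco4c1. Mageb16 stood in P at 20.9 and 27.5 CPM at E7.0 and at 10.5 and 16 at E7.5, and the difference was -4.72 ± 0.61 (edgeR adjusted p = 0.00713). Amot stood in P at 203 and 186 CPM and then at 95.2 and 120.3, with a difference of -3.37 ± 0.51 (edgeR adjusted p = 0.027). In P both genes thus stayed well above their A level of E7.5. Fgg stood in P at 13.9 and 17.3 CPM and then at 6.99 and 14.6, with a difference of -6.13 ± 0.99 (edgeR adjusted p = 0.0328). Slco4c1, an organic anion transporter whose level was under the limit for naming, went from 6.39 and 8.93 CPM to 0.253 and 0.598 in A and from 4.77 and 8.25 to 6.74 and 14.7 in P, a difference of -4.94 ± 0.80 with the same adjusted p. The summed visceral endoderm list in P was 3896 and 8054 CPM at E7.0 and 1618 and 13900 at E7.5, and its part in these differences was not tested. The difference of Mageb16 lost its call without E7.5 replicate 1 of A or E7.0 replicate 1 of P. Those of Amot, Fgg and Slco4c1 stayed called only without E7.5 replicate 2 of A or E7.5 replicate 1 of P, and lost their call without any other A or P library. With total counts as the only scaling none of the 4 differences was called (edgeR adjusted p 0.0586 for Mageb16 and 0.147 to 0.306 for the others). In a fit of only the A and P libraries of both ages the adjusted p of the 4 was 0.0575 to 0.269.

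**Figure D5:**
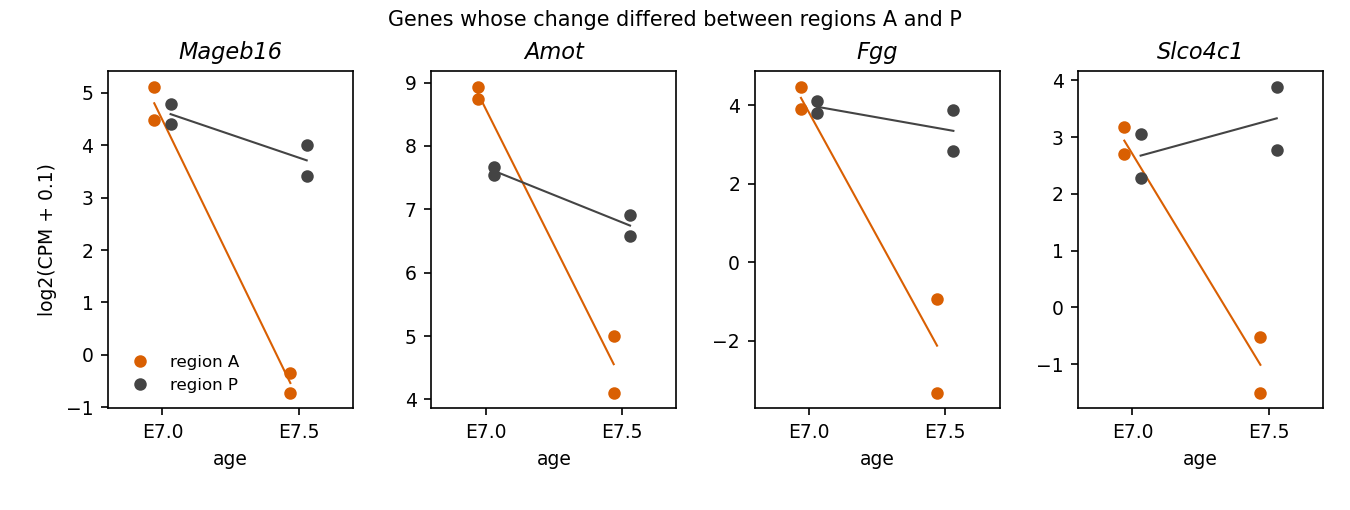
Level of the 4 genes whose change differed between regions, on a log2(CPM + 0.1) axis with a scale of its own for each gene, at E7.0 and E7.5. Each point is a library, orange for region A and dark grey for region P, and lines join the means of the log values; in all 4 genes the A libraries of E7.5 lie lowest.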

How the data were processed

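Per the labels, RNA of dissected embryo pieces was isolated in guanidine thiocyanate, selected for poly(A) tails and turned into Nextera XT libraries. The authors deposited counts of reads per gene in 1 table. BWA, TopHat2 2.0.9, CASAVA 1.8 and the mm10 build are listed, without their roles, per the submitters' processing notes. How reads were counted, with which annotation and whether by strand, is not given in the sources read here, so overlapping genes may share counts. Of its columns, 6 matched no sample and were not used. From the counts, edgeR 4.0.16 (R 4.3.3, limma 3.58.1) fitted group means over the 18 embryo libraries, with TMM scaling, its default count filter (10 counts in a library, 15 in all) and robust quasi-likelihood tests. The p-values were adjusted over 14403 genes, and called means an adjusted p under 0.05. CPM values use the TMM-scaled library sizes. The standard error is the fold change over the root of the F statistic.

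The genes named are the 12 largest rises and 12 largest falls among called genes with a mean of at least 8 CPM and replicates apart, up to 4 called and up to 4 other genes of each list, and genes that check the labels; others are marked where they appear. The members and lists were chosen with earlier results of these data known. The steps were tested on simulated data of 14050 genes, 200 of them changed, where no changed gene was called in the wrong direction and 4 unchanged ones were called. Tried as alternatives were DESeq2 1.42.0, further scalings and filters, fitting only the libraries of each comparison, blocking on replicate number, and dropping single libraries. RefSeq (GRCm38.p6) supplied the promoters. The libraries of a group differed beyond counting noise.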

Additional observations from a re-analysis of the deposited data

Results flagged for a closer look

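In 4 genes the change from E7.0 to E7.5 differed between regions A and P by a test of the difference itself. The log2 fold change in A minus that in P was -4.72 for Mageb16, -3.37 for Amot, -6.13 for Fgg and -4.94 for Slco4c1. With total counts as the only scaling, or with only the A and P libraries of both ages in the fit, none of these 4 differences was called. The change in P alone was -0.87, -0.86, -0.54 and 0.72 in the same order. In AM of E7.5 these genes stood at 18.7 ± 0.00309, 210.2 ± 21.2, 18.3 ± 10.7 and 24.4 ± 0.565 CPM (SD, n = 2 each).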

How the results depend on the processing

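All 85 called genes kept the direction of their change under every alternative run, while the counts of calls moved. In all 85 the libraries of the 2 ages lay apart, and the smallest change was 1.23 on the log2 scale. Leaving out a library or rescaling could hardly turn such a direction, so keeping it is no support for the calls. DESeq2 called 259 genes higher and 324 lower and included all 85, and for the difference between regions it called 21. Without a count filter 316 were higher and 316 lower, and 121 differed between regions. With total counts as the only scaling 116 were higher and 45 lower, and 0 differed between regions, where 620 had an unadjusted p under 0.05 in the fit with TMM. In a fit of only the groups compared, edgeR called 0 higher and 0 lower (2005 genes had an unadjusted p under 0.05, and DESeq2 over all libraries called 583), and 1 differed between regions. Leaving out each library in turn gave 2 to 84 higher, 8 to 86 lower and 0 to 18 that differed between regions. With a replicate block, 78 were higher and 152 lower, with all 85 among them, and 4 differed between regions. The block also brought Hhex (0.0261), Lhx1 (0.0404), Eomes (0.0291), Irx3 (0.029), Gbx2 (0.0444) and Fgf15 (0.047) under an adjusted p of 0.05, and in the anterior visceral endoderm list 4 genes. Same-numbered libraries deviated together, with correlations of 0.145 to 0.374 over the 6 pairs of groups and 0.277 between the ages of A. The 2 highest were those of A with P at the same age, 0.321 at E7.0 and 0.374 at E7.5. At E7.5 the replicate 1 libraries of A, P, AM and the extra-embryonic part held Ddx3y at 57 to 67.4 CPM. Replicate 2 of each held 0. Whether same-numbered pieces came from the same embryos is not stated, and a pairing within each age was not fitted. With 2 numbers, and no label that ties a number to a litter or batch, this sharing is a hint from the data. The fit without the block was kept. The cause of these shifts was not tested. DESeq2's size factors in edgeR (27 and 59) and a filter of 20 counts (27 and 60) stayed close. Depth and 2 libraries per age limit what can be seen: on simulated counts 4.48% of 2-fold changes were recovered.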

Other observations

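Several other lists had few or no calls. In the extra-embryonic ectoderm list Fgfr2 was the 1 called of 19, with a median log2 fold change of 0.72, and in the basement membrane and collagen list Srgn was the 1 called of 18. Of 16 tested genes of cholesterol synthesis edgeR called none, DESeq2 called 3 lower and edgeR with the replicate block 4 lower, 8 had an unadjusted p under 0.05, 13 were negative and the median was -0.95. Of 13 tested genes of the Hedgehog pathway edgeR and DESeq2 called none, 3 had an unadjusted p under 0.05, 11 were positive and the median was 1.18. Over all 40 lists, 527 of 587 distinct genes were tested and 14 were called.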
